A study of Thermothelomyces thermophilus with 49 samples.

Results

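A set of 12 genes of the thermophilic fungus *Thermothelomyces thermophilus* was described whose RNA level stayed raised at every time point after cellulose replaced glucose, with or without the regulators Clr1, Clr2 and Clr4. The genes were chosen from the read counts themselves. Counts were scaled by the total of each library (CPM), the 2 cultures of a strain were averaged, and d was defined as log2(mean CPM + 1) at a time after the spike minus the same value at steady state (SS) in that strain. A gene was kept if d was at least 1 at all 4 times in all 4 strains, and if its highest group mean reached 10 CPM. Of 9292 genes in the count table, 7657 reached that level and lay outside 4 loci that the rule left out, and 12 met the rule. The rise over SS was thus what selected the genes, and it is given below as values with errors and without a test.

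The 4 strains were the parental strain MJK20.3 and 3 strains with 1 regulator gene deleted each. The *Δclr1* strain was BS7.8, the *Δclr2* strain was BS6.4, and JK2.8 lacked *clr4*. BS6.4 came from MJK20.2, the progenitor of MJK20.3, in which the study's authors had detected wildtype contamination. All 4, the parental strain included, lacked *ku80*, a gene of non-homologous end joining, and each deletion strain was 1 clone. Each strain was grown in 2 bioreactor cultures (R1 and R2), sampled in exponential growth on excess glucose (ex), in a glucose-limited chemostat at steady state, and 4 times after cellulose had been added in place of glucose and the feed stopped. The first time, t1, was 0.5 h after the addition. The next, t2 and t3, followed at 1 h and at 2 h, and the last, t4, at 4 h. The end of glucose feeding and the arrival of cellulose came together and cannot be told apart. Parental and *Δclr2* RNA was purified, DNase-treated and sequenced at one centre, and *Δclr1* and *Δclr4* RNA was sequenced without those steps at another, so a level that differs between these strain pairs cannot be told apart from the centre, whereas each response to cellulose lies within 1 centre.

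Filamentous fungi sense plant cell walls through soluble sugars released from the polymer, such as cellobiose from cellulose, which are taken up by sugar transporters and cleaved outside or inside the cell. In *Neurospora crassa*, the zinc binuclear cluster transcription factors CLR-1 and CLR-2 are needed for the transcription of most cellulase genes on cellulose, and glucose represses many of the same genes. Genes that rise after the change of carbon source can therefore respond to the new sugars, to the end of glucose feeding or to the handling of the culture.

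The 48 libraries held 2567179 to 22212257 counted reads. The targeted genes had at most 1.45 CPM (*clr1*), 0.165 CPM (*clr2*) and 0.127 CPM (*clr4*) in any library of the strain deleted for them, against at least 35.3, 1.14 and 122 CPM in every library of the strains that kept them. The members nearest the threshold had a lowest d, out of 16 values, of 1.14 for MYCTH_2074210, 1.10 for MYCTH_2295409 and 1.07 for MYCTH_2308477. The first genes outside were MYCTH_68753 and MYCTH_81258, both with a lowest d of 0.92 in *Δclr1* at t3, and MYCTH_2313032 with 0.91 in *Δclr2* at t3.

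Counted from the parental strain, the requirement in *Δclr1* removed most candidates. In the parental strain, 200 genes had d of at least 1 at all 4 times, as did 221 in *Δclr4*, 427 in *Δclr1* and 489 in *Δclr2*. The parental strain shared 177 of its 200 genes with *Δclr4*, 78 with *Δclr2* and 14 with *Δclr1*. The condition was met in the other 3 strains but not in *Δclr1* by 63 genes, whereas 4 genes missed it in the parental strain alone, 2 in *Δclr2* alone and 0 in *Δclr4* alone. The order of counting matters. *Δclr1* and *Δclr2* shared 252 genes, of which 12 met the condition in the parental strain and 16 in *Δclr4*. The parental strain and *Δclr4* overlapped, so the count of genes missed in either of them alone was bound to be low. These counts rest on the same values as the rule.

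**Figure D1:**
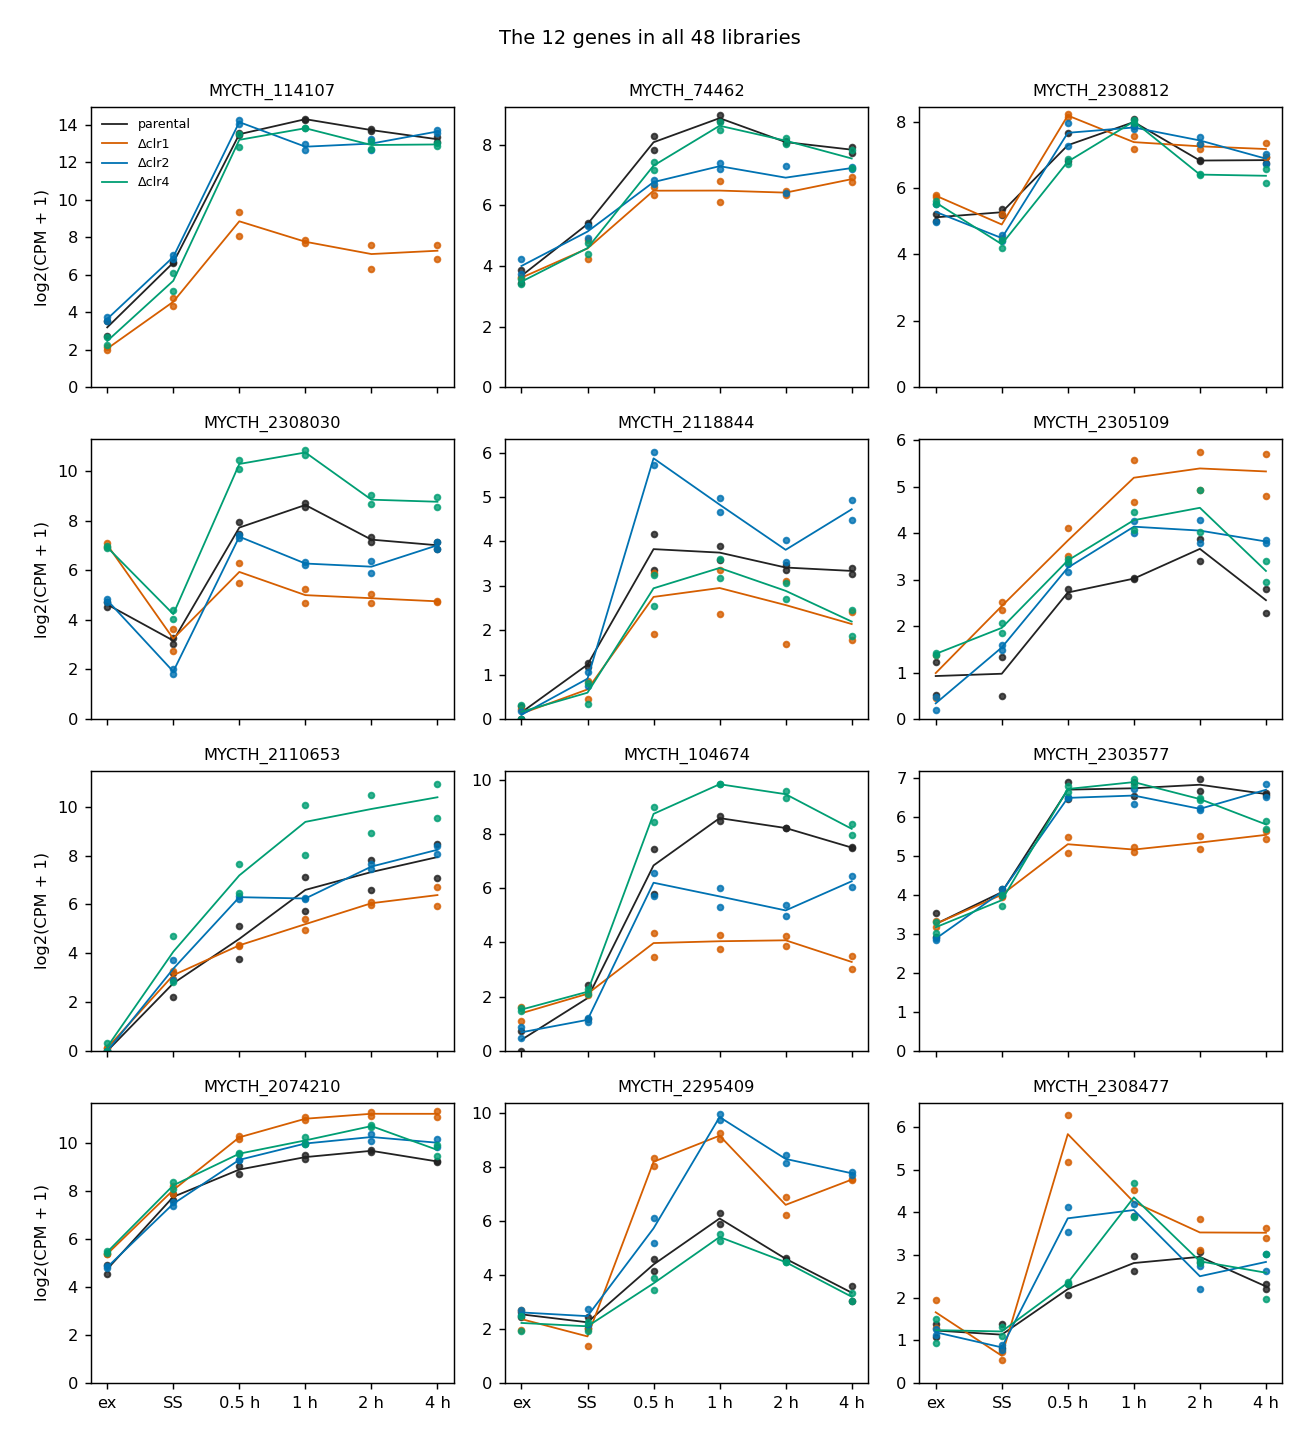
Level of the 12 genes, as log2(CPM + 1), in exponential growth (ex), at SS, and at t1 to t4 after cellulose was added. Points are single libraries (2 cultures per strain and state), lines join group means, and the y axis scale differs between panels. MYCTH_114107 and MYCTH_104674 show the *Δclr1* strain (orange) far below the other 3 strains after the spike, while MYCTH_2295409 shows *Δclr1* and *Δclr2* (blue) above the other 2 strains.

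By annotation, the set held 2 genes with transport terms, 4 carbohydrate-active enzymes (CAZymes), 1 further gene with a hydrolase term and 5 genes with no annotation in the study's lists. All 12 were protein-coding. The set held 4 of the 390 listed CAZyme genes with counts and none of the 312 listed transcription factor genes. No cellulase was a member out of 47, 1 of 65 hemicellulases was, and 3 were in the class of other CAZymes, so the set contained a mannanase and enzymes outside the main cellulase families.

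MYCTH_114107 (chromosome 1, 3301692 to 3303898 on assembly ASM22609v1), annotated with carbohydrate transport and an integral membrane protein, had the most reads of all members after the spike in every strain but *Δclr1*, where MYCTH_2074210 had more at each time. Its level in R1 and R2 of the parental strain was 101 and 96.4 CPM at SS, 11148 and 11852 CPM at t1, 19637 and 20478 CPM at t2, 13928 and 12866 CPM at t3, and 10390 and 8704 CPM at t4. In *Δclr2* it was 112 and 132 CPM at SS, 19136 and 16889 CPM at t1, 6487 and 8016 CPM at t2, 9766 and 6506 CPM at t3, and 11883 and 13572 CPM at t4. In *Δclr4* it was 66 and 34 CPM at SS, 11414 and 7276 CPM at t1, 14287 and 14414 CPM at t2, 6610 and 8828 CPM at t3, and 7364 and 8396 CPM at t4. These 3 strains had at least 6487 CPM at every time, with the peak at t2 in the parental strain and *Δclr4* and at t1 in *Δclr2*. In *Δclr1* the level was 26.2 and 18.8 CPM at SS, 652 and 266 CPM at t1, 226 and 204 CPM at t2, 78.2 and 194 CPM at t3, and 193 and 115 CPM at t4. Every *Δclr1* library after the spike thus lay above both *Δclr1* SS libraries and below every library of the other 3 strains after the spike. The mean response, which is the log2 fold change of the average of t1 to t4 over SS in the edgeR model, was 7.21 ± 0.44 (SE) in the parental strain, 6.29 ± 0.42 in *Δclr2*, 7.78 ± 0.45 in *Δclr4* and 3.13 ± 0.35 in *Δclr1*. On the linear scale these were 148-fold, 78.2-fold, 219-fold and 8.75-fold.

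After the spike, reads of MYCTH_114107 made up most of the reads of the set in every strain but *Δclr1*. The 12 genes together took 0.0382% to 0.0454% of all counted reads at SS, as means of 2 cultures, and 2.25% ± 0.0378 (SD, n = 2) at t2 in the parental strain. MYCTH_114107 alone took 1.96% and 2.05% in those 2 libraries. In *Δclr1* the set took 0.332% ± 0.00394 at t2, of which MYCTH_114107 held 0.0226% and 0.0204% of all reads.

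MYCTH_2118844 (chromosome 4, 217005 to 219069), annotated with transmembrane transport, was a low-level gene, with 3 to 9 reads per SS library. Its level at SS was between 0.256 and 1.41 CPM in the 8 libraries. In *Δclr2* it reached 63.4 and 51.8 CPM at t1, 30.5 and 24.4 CPM at t2, 10.7 and 15.4 CPM at t3, and 29.4 and 21.5 CPM at t4. In the other strains no library exceeded the 17.1 CPM of parental R2 at t1, and the lowest was 2.23 CPM in *Δclr1* R2 at t3. Both *Δclr2* libraries thus lay above all libraries of the other strains at each of the 4 times, by little at t3. The mean response was 4.84 ± 0.63 in *Δclr2*, 4.00 ± 0.59 in *Δclr4*, 3.16 ± 0.58 (parental) and 3.03 ± 0.55 in *Δclr1*, and none of the 4 tested differences between strains passed. *Δclr2* was compared with the parental strain only (1.68 ± 1.03, adjusted p = 0.23).

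MYCTH_104674 (chromosome 6, 55203 to 57656) belongs to glycoside hydrolase family 31, whose known members include α-glucosidases and α-xylosidases. The parental cultures had 4.44 and 1.27 CPM at SS, 53.8 and 173 CPM at t1, 359 and 405 CPM at t2, 300 and 293 CPM at t3, and 178 and 181 CPM at t4. The *Δclr4* cultures had 3.26 and 3.82 CPM at SS and between 249 and 910 CPM after the spike, and the *Δclr2* cultures had 1.35 and 1.08 CPM at SS and between 30.2 and 94 CPM. The *Δclr1* cultures had 3.46 and 3.16 CPM at SS, 19.4 and 10.1 CPM at t1, 18.6 and 12.4 CPM at t2, 18.1 and 13.7 CPM at t3, and 10.3 and 7.15 CPM at t4. The strains thus did not overlap with one another after the spike except at t1, where the parental and *Δclr2* cultures did, and *Δclr1* was lowest at each time. The mean response was 7.46 ± 0.45 in *Δclr4*, 6.33 ± 0.48 in the parental strain, 5.26 ± 0.57 in *Δclr2* and 1.89 ± 0.38 in *Δclr1*.

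MYCTH_104674 lay between 2 genes that also rose in some strains, which were looked up for their position and chosen after their values were seen. MYCTH_58882, 1433 bases before it, is a listed β-glucosidase of family GH3, an enzyme class that cleaves cellobiose to glucose, and MYCTH_104673, 1898 bases after it, carries the term carbohydrate transport. MYCTH_58882 had a mean response of 11.98 ± 0.84 in the parental strain and 1.19 ± 0.90 in *Δclr1* (adjusted p = 0.26). MYCTH_104673 had 6.78 ± 0.41 in the parental strain and 0.65 ± 0.43 in *Δclr1* (adjusted p = 0.19). Both neighbours thus passed the test in the parental strain and not in *Δclr1*. They also passed it in *Δclr2* (7.09 ± 0.89 and 3.10 ± 0.39) and in *Δclr4* (10.70 ± 0.65 and 6.69 ± 0.40). MYCTH_104674 had met the rule with column totals but did not meet it with the library scaling of the edgeR model (TMM). Its difference from the neighbours in *Δclr1* was not tested. The lowest d values of the neighbours were 0.36 and 0.08. Of the 5 other listed GH31 genes, 2 rose and 1 fell in the parental strain and 3 rose and 1 fell in *Δclr4*. In both *Δclr1* and *Δclr2*, 3 of them rose and 2 fell. Among all 8565 genes tested, the mean response was called higher than 0 for 15.3% (parental), 18.2% (*Δclr4*), 26.1% (*Δclr2*) and 27.7% (*Δclr1*).

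MYCTH_2308030 (chromosome 5, 708317 to 710965) was the only listed gene of family GH94, a family known for phosphorylases of cellobiose and cello-oligosaccharides. The parental cultures had 7.27 and 8.67 CPM at SS, 178 and 243 CPM at t1, 415 and 379 CPM at t2, 140 and 160 CPM at t3, and 116 and 140 CPM at t4. The *Δclr4* cultures had a mean of 17.8 ± 3.57 CPM (SD, n = 2) at SS, 1095 and 1408 CPM at t1, 1610 and 1842 CPM at t2, 403 and 518 CPM at t3, and 371 and 498 CPM at t4. The *Δclr2* cultures had 3.05 and 2.51 CPM at SS and between 58 and 169 CPM after the spike. In the *Δclr1* cultures, the level was 5.65 and 11.3 CPM at SS, 43.5 and 76.9 CPM at t1, and between 24.8 and 37.2 CPM from t2 to t4. The order of the mean responses was *Δclr4* (5.71 ± 0.29), *Δclr2* (4.97 ± 0.35), parental (4.81 ± 0.30) and *Δclr1* (1.86 ± 0.24), and the *Δclr2* and parental values lay within 1 SE of each other.

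MYCTH_74462 (chromosome 6, 2328945 to 2330779) is a listed GH5 mannanase, an enzyme that cuts the backbone of mannan, a hemicellulose. At SS it had 41.6 and 39.5 CPM in the parental strain, 20.1 and 25.9 CPM in *Δclr4*, 17.7 and 27.9 CPM in *Δclr1*, and 29.3 and 38.7 CPM in *Δclr2*. At t2 the same cultures had, in this order, 496 and 437, 357 and 427, 67.7 and 109, and 144 and 166 CPM. The 2 strains with *clr1* and *clr2* intact thus stood above the other 2 at t2, with no overlap. At t4 there was overlap, with 147 CPM in *Δclr4* R1 against 145 and 152 CPM in *Δclr2*. The mean response was 3.59 ± 0.25 in *Δclr4*, 3.02 ± 0.24 in the parental strain, 1.90 ± 0.22 in *Δclr1* and 1.79 ± 0.23 in *Δclr2*.

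The other 9 listed mannanases did not respond alike as a group, but MYCTH_84297 and MYCTH_99077 also had larger mean responses in the parental strain and *Δclr4*. Of them, 3 rose and 2 fell in *Δclr4*, 2 rose and 2 fell in the parental strain and likewise in *Δclr2*, and 2 rose and 1 fell in *Δclr1*. MYCTH_84297 had a mean response of 7.24 ± 0.37 in the parental strain and 8.80 ± 0.40 in *Δclr4* but 1.18 ± 0.40 in *Δclr1* and -0.77 ± 1.27 in *Δclr2* (adjusted p = 0.63). MYCTH_99077 had 6.71 ± 0.33 and 7.61 ± 0.31 in the former 2 strains, and 0.49 ± 0.27 (adjusted p = 0.11) and 1.62 ± 1.01 (adjusted p = 0.18) in the latter 2. The median mean response of the 46 cellulases tested was 5.87 (parental), 6.07 (*Δclr4*), 1.08 (*Δclr2*) and 0.35 (*Δclr1*), beside 3.04, 3.26, 3.41 and 2.58 for the 12 genes and -0.06, -0.05, -0.00 and -0.02 for all genes tested. The medians of the 12 genes follow from the rule, which required a rise in each strain.

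MYCTH_2308477 (chromosome 5, 2050331 to 2052623) is listed in auxiliary activity family 12, known for oxidoreductases that use pyrroloquinoline quinone as cofactor. Its counts were low, with 2 to 23 reads per SS library. The *Δclr1* cultures had 0.455 and 0.656 CPM at SS, 35.4 and 77.1 CPM at t1, 14 and 21.9 CPM at t2, 7.72 and 13.4 CPM at t3, and 11.4 and 9.61 CPM at t4. The parental cultures had 1.62 and 0.765 CPM at SS and stayed between 3.2 and 7.41 CPM after the spike. The *Δclr2* cultures lay between 3.64 and 17.3 CPM and the *Δclr4* cultures between 2.92 and 25.0 CPM after the spike. The *Δclr1* cultures thus stood above all other libraries at t1, t3 and t4. The other tested gene of this family, MYCTH_2306748, rose in all 4 strains, from 0.63 ± 0.21 (parental) to 1.65 ± 0.22 (*Δclr2*).

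MYCTH_2295409 (chromosome 1, 2522541 to 2524838) carries the term hydrolase activity and had its largest responses in the strains without *clr1* or *clr2*. It lies 13 bases from its neighbour MYCTH_2295405, whose highest group mean was 21.7 CPM and whose d ran from -0.14 to 1.92. The 2 spans do not overlap, but the strand setting of the counting is not given. Whether reads near the shared boundary were counted for the wrong gene was not tested. For MYCTH_2295409, the *Δclr1* cultures had 3.00 and 1.61 CPM at SS, 262 and 325 CPM at t1, 622 and 527 CPM at t2, 74.5 and 118 CPM at t3, and 187 and 183 CPM at t4. The *Δclr2* cultures had 3.39 and 5.74 CPM at SS, 35.6 and 68.8 CPM at t1, 995 and 860 CPM at t2, 349 and 282 CPM at t3, and 227 and 209 CPM at t4. Both strains peaked at t2, but *Δclr1* was already high at t1. The parental cultures had 4.44 and 3.06 CPM at SS, 16.6 and 23.4 CPM at t1, 76.9 and 58.1 CPM at t2, 23.9 and 22.7 CPM at t3, and 7.24 and 11.1 CPM at t4. The *Δclr4* cultures ran from 9.86 CPM at t1 through 37.5 and 45.5 CPM at t2 to 7.16 and 9.16 CPM at t4. At every time, each *Δclr1* and *Δclr2* library lay above each parental and *Δclr4* library. The mean response was 6.60 ± 0.34 in *Δclr1*, 5.64 ± 0.35 in *Δclr2*, 2.75 ± 0.35 in the parental strain and 2.63 ± 0.30 in *Δclr4*.

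The 5 members without annotation differed from one another. MYCTH_2110653 (chromosome 3, 4652205 to 4654357) was highest at t4 in the mean of each strain. It climbed from each time to the next in both parental and both *Δclr4* cultures. In the parental strain it had 8.08 and 3.57 CPM at SS, 33.4 and 12.8 CPM at t1, 139 and 52.4 CPM at t2, 225 and 94.1 CPM at t3, and 354 and 135 CPM at t4. In *Δclr4* it had 25.3 and 6.11 CPM at SS, 203 and 86.9 CPM at t1, 1068 and 263 CPM at t2, 1439 and 481 CPM at t3, and 1940 and 738 CPM at t4. In both strains the first culture was above the second at SS and at each time, by 2.26 to 2.65 times in the parental strain and by 2.34 to 4.14 times in *Δclr4*, while each culture rose over its own SS level. In *Δclr1* the level went from 8.56 and 6.62 CPM at SS through 67.9 and 62.6 CPM at t3 to 104 and 61 CPM at t4, so that R2 did not climb after t3, and in *Δclr2* from 12.2 and 6.45 CPM to 264 and 338 CPM.

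MYCTH_2074210 (chromosome 1, 9590981 to 9595533) had the highest SS level of the members, at 166 to 336 CPM. In *Δclr1* it had 297 and 233 CPM at SS, 1278 and 1167 CPM at t1, 1996 and 2192 CPM at t2, 2286 and 2548 CPM at t3, and 2201 and 2626 CPM at t4. In the parental strain it had 198 and 237 CPM at SS, 425 and 535 CPM at t1, 733 and 645 CPM at t2, 797 and 856 CPM at t3, and 590 and 623 CPM at t4. The *Δclr1* libraries lay above the parental libraries at each time with a mean response of 2.78 ± 0.15 against 1.71 ± 0.14, and *Δclr2* (2.25 ± 0.15) and *Δclr4* (2.01 ± 0.15) lay between them.

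MYCTH_2303577 (chromosome 3, 977237 to 978360) had a narrow range of levels, with 12.1 to 17 CPM in the 8 SS libraries. After the spike it lay between 32.9 and 49.1 CPM in *Δclr1* and between 51.5 and 126 CPM in the libraries of the other 3 strains, without overlap. The mean response was 1.28 ± 0.16 in *Δclr1*, against 2.87 ± 0.18 in the parental strain, 2.32 ± 0.18 in *Δclr2* and 2.92 ± 0.17 in *Δclr4*.

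MYCTH_2308812 (chromosome 5, 2619475 to 2621597) and MYCTH_2305109 (chromosome 3, 3542727 to 3543877) passed none of the tests of a response difference in edgeR without a culture block. MYCTH_2308812 had 17.2 to 40.0 CPM at SS and 69.6 to 302 CPM after the spike, with mean responses of 2.15 ± 0.22 (parental), 2.53 ± 0.21 (*Δclr1*), 2.85 ± 0.24 (*Δclr2*) and 2.85 ± 0.22 (*Δclr4*). For MYCTH_2308812, DESeq2 called the difference between *Δclr2* and the parental strain (0.72 ± 0.29, adjusted p = 0.043), as did edgeR without the t1 library of parental R2 (0.81) or of *Δclr2* R1 (0.79), and the difference between *Δclr1* and the parental strain was called without the SS library of *Δclr1* R1 (0.75, adjusted p = 0.046). MYCTH_2305109 had 0.404 to 4.74 CPM at SS, from 2 to 68 reads per library, and 3.86 to 52.9 CPM after the spike. Its mean responses were 3.07 ± 0.56, 2.63 ± 0.34, 2.55 ± 0.47 and 2.44 ± 0.36 in the same order.

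**Figure D2:**
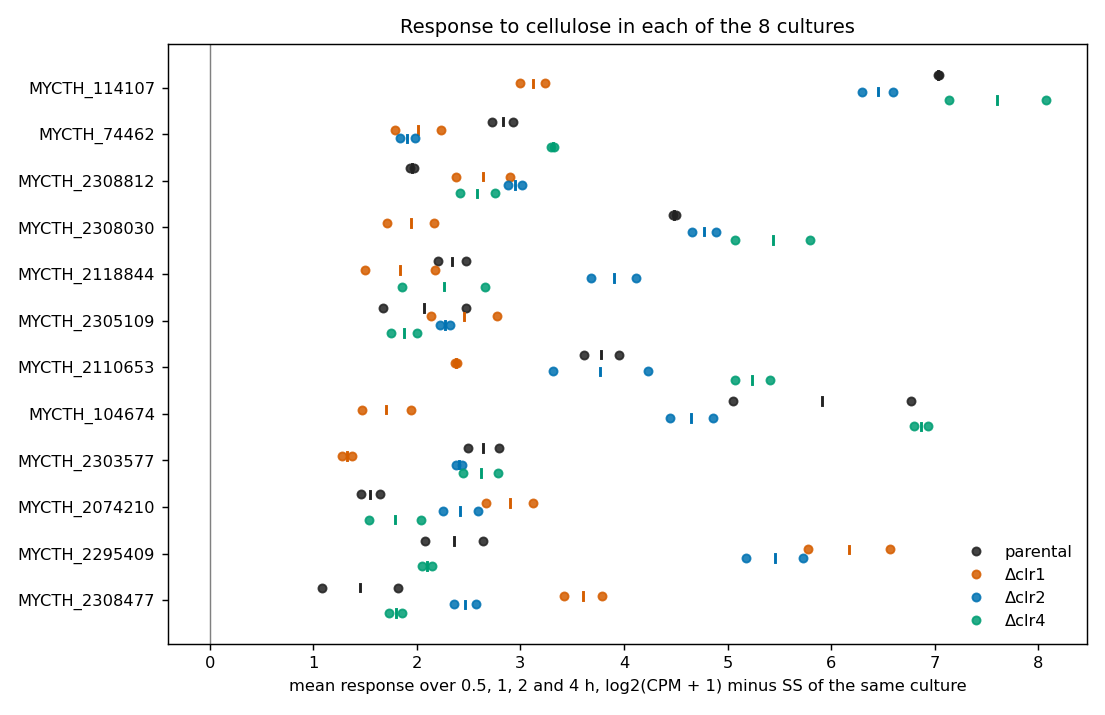
Mean response of the 12 genes in each of the 8 cultures, as the average over 0.5, 1, 2 and 4 h of log2(CPM + 1) minus the same culture's SS value. Each point is 1 culture and each bar the mean of a strain's 2 cultures. Every point lies right of 0, from 1.08 (MYCTH_2308477, parental R1) to 8.07 (MYCTH_114107, *Δclr4* R2). The rule used these libraries and largely fixed this sign.

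The rule averaged the 2 cultures, so the single cultures were also examined. They are the libraries that selected the genes. Values above 0 were thus largely fixed by the rule and are no independent check. Of the 384 values of d for 1 culture and 1 time, all 384 were above 0 and 379 were at least 1. For 9 of the 12 genes all 32 single-culture values were at least 1. The lowest values of the other 3 were 0.60 for MYCTH_2295409 in parental R1 at t4, 0.68 for MYCTH_2308477 in parental R1 at t1, and 0.97 for MYCTH_104674 in *Δclr1* R2 at t4. The lowest of the 16 strain values of d lay in *Δclr1* for 6 genes, in the parental strain for 3, in *Δclr4* for 2 and in *Δclr2* for 1.

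The size of the response was then compared between strains. The rule set a floor on each response but not on their differences, and the same libraries served both purposes. The difference was tested with edgeR's quasi-likelihood test over all 8565 genes that passed the filter on low counts, and p-values were adjusted by Benjamini-Hochberg over all of them. All 12 genes passed that filter. Between *Δclr1* and *Δclr4*, which were sequenced at the same centre, 9 of the 12 genes differed, while 35.3% of all genes did. The response was lower in *Δclr1* for 6 genes (19.0% of all genes) and higher for 3 (16.3% of all genes). The lower ones were MYCTH_104674 (-5.57 ± 0.57 on the log2 scale, adjusted p = 1e-08), MYCTH_114107 (-4.65 ± 0.44, adjusted p = 4.1e-10), MYCTH_2308030 (-3.85 ± 0.32, adjusted p = 5.4e-11), MYCTH_2110653 (-2.97 ± 0.87, adjusted p = 0.01), MYCTH_74462 (-1.69 ± 0.29, adjusted p = 2.7e-05) and MYCTH_2303577 (-1.64 ± 0.21, adjusted p = 2.3e-07). The higher ones were MYCTH_2295409 (3.96 ± 0.45, adjusted p = 3.8e-08), MYCTH_2308477 (2.24 ± 0.64, adjusted p = 0.0063) and MYCTH_2074210 (0.77 ± 0.18, adjusted p = 0.001).

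Against the parental strain, the response in *Δclr1* differed for 8 genes, while 38.5% of all genes did. It was lower for 5 genes (21.9% of all genes) and higher for 3 (16.6% of all genes). The same 5 and 3 genes had differed in the same direction between *Δclr1* and *Δclr4*, but the comparisons share the *Δclr1* libraries. MYCTH_104674 differed by -4.44 ± 0.63, MYCTH_114107 by -4.08 ± 0.43, MYCTH_2308030 by -2.95 ± 0.36, MYCTH_2303577 by -1.59 ± 0.22 and MYCTH_74462 by -1.12 ± 0.29. MYCTH_2295409 differed by 3.85 ± 0.56, MYCTH_2308477 by 2.73 ± 0.83 and MYCTH_2074210 by 1.06 ± 0.18. MYCTH_2110653 differed by -1.74 ± 1.04 and did not pass the test, but with the culture as a block the difference was -1.79 ± 0.34 (adjusted p = 0.00012). MYCTH_2118844, MYCTH_2305109 and MYCTH_2308812 passed neither test.

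**Figure D3:**
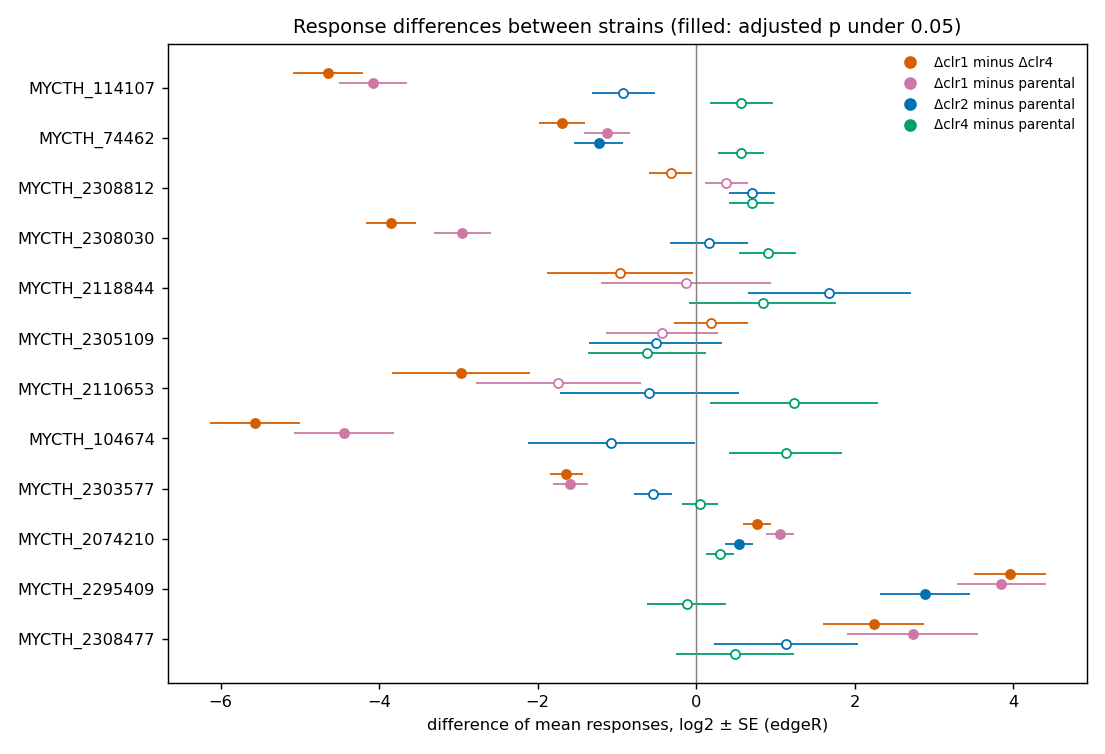
Difference in mean response between pairs of strains for each of the 12 genes, on the log2 scale with SE from the edgeR model. Filled points have an adjusted p under 0.05 and open points do not. *Δclr1* lies left of 0 against both *Δclr4* and the parental strain for MYCTH_104674 (-5.57 and -4.44) and right of 0 for MYCTH_2295409 (3.96 and 3.85).

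The calls for *Δclr1* differed in how far they rested on single libraries. MYCTH_104674, MYCTH_114107, MYCTH_2308030, MYCTH_2303577 and MYCTH_2295409 kept both calls in each of the 24 settings that left out 1 library or all libraries of 1 culture of the compared strains. The call of MYCTH_2308477 was lost against the parental strain without the SS library of parental R1 (2.02, adjusted p = 0.27) and against *Δclr4* without the SS library of *Δclr4* R1 (2.00, adjusted p = 0.095), and likewise without those whole cultures. The call of MYCTH_2110653 against *Δclr4* was lost without the SS library of *Δclr4* R2 (-2.41, adjusted p = 0.07) or either *Δclr1* culture (adjusted p = 0.071 and 0.084), and that of MYCTH_74462 against the parental strain without the SS library of *Δclr1* R2 (-0.72, adjusted p = 0.097), culture R2 of *Δclr1* (-0.85, adjusted p = 0.054) or culture R2 of the parental strain (-0.99, adjusted p = 0.066). MYCTH_2074210 lost its call against *Δclr4* without culture R2 of *Δclr1* (0.54, adjusted p = 0.072) or culture R1 of *Δclr4* (0.51, adjusted p = 0.087).

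Between *Δclr2* and the parental strain, also sequenced together, 3 of the 12 genes differed in response, while 31.0% of all genes did. MYCTH_2295409 responded more in *Δclr2* (2.89 ± 0.57, adjusted p = 0.00023), as did MYCTH_2074210 (0.54 ± 0.18, adjusted p = 0.023), and MYCTH_74462 responded less (-1.23 ± 0.31, adjusted p = 0.0025). With the culture as a block, 5 genes differed, the added ones being MYCTH_2303577 (-0.57 ± 0.23, adjusted p = 0.048) and MYCTH_2308812 (0.66 ± 0.24, adjusted p = 0.031). The share of all genes was not computed with the block, so the 31.0% is no background for this count. MYCTH_114107 differed by -0.92 ± 0.40 (adjusted p = 0.08), and was called with these 2 strains alone in the fit (-0.93 ± 0.27, adjusted p = 0.011). The call of MYCTH_2074210 was lost without the SS library of parental R2 (0.43) or of *Δclr2* R1 (0.48). It was also lost without parental culture R1 (0.61) or R2 (0.48) or without culture R1 of *Δclr2* (0.44). The call of MYCTH_74462 was lost without culture R2 of the parental strain (-1.10).

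Between *Δclr4* and the parental strain, 0 of the 12 genes differed in response, and 0.0467% of all genes did. DESeq2 also called 0 of them, and 2 had an unadjusted p under 0.05. The estimates ran from -0.62 ± 0.74 for MYCTH_2305109 to 1.23 ± 1.06 for MYCTH_2110653.

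Levels within the time after the spike were compared at t4 and t1, since a rise that lasts can still decay or build up. The share of all genes that differed between t4 and t1 was 35.9% in *Δclr4*, 36.9% in the parental strain, 40.4% in *Δclr2* and 42.1% in *Δclr1*. Of the 12 genes, 3 differed in *Δclr4*, 3 in the parental strain, 6 in *Δclr2* and 8 in *Δclr1*. The libraries are those of the rule, which fixed no change between these times. No gene passed the test in all 4 strains, and 2, MYCTH_74462 and MYCTH_104674, passed it in none. The shares of all genes that passed in all 4 strains or in none were not computed, so these tallies have no background. Both tallies ended with the culture as a block, where MYCTH_2110653 passed in all 4 strains and MYCTH_104674 in the parental strain and *Δclr1*.

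MYCTH_2110653 was higher at t4 than at t1, by 3.53 ± 0.79 (adjusted p = 0.0011) in the parental strain, 3.34 ± 0.71 (adjusted p = 0.0007) in *Δclr4* and 1.87 ± 0.72 (adjusted p = 0.039) in *Δclr1*. In *Δclr2* the difference was 1.68 ± 0.69 (adjusted p = 0.057), and 1.67 ± 0.21 (adjusted p = 2.7e-07) with the culture as a block. The *Δclr1* call was lost without either t1 library or without the t4 library of R1 (1.46, adjusted p = 0.2). MYCTH_2074210 was also higher at t4, by 0.74 ± 0.16 in *Δclr1*, 0.48 ± 0.16 in the parental strain and 0.43 ± 0.16 in *Δclr2*. The parental call was lost without the t1 library of R1 or either t4 library, and the *Δclr2* call without either t1 library or the t4 library of R1. Both calls were also lost without either culture of their strain, and the *Δclr1* call without culture R2 (0.54). MYCTH_2305109 was higher at t4 in *Δclr1* by 1.32 ± 0.35 (adjusted p = 0.0029), a call lost without the t1 library of R2 (1.07) or the t4 library of R1 (0.80, adjusted p = 0.13).

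Other members had fallen from t1 to t4. MYCTH_114107 changed in *Δclr1* by -1.80 ± 0.36 on the log2 scale (adjusted p = 0.00013), and its differences of -0.13 ± 0.35 in the parental strain, -0.12 ± 0.35 in *Δclr4* and -0.78 ± 0.35 in *Δclr2* did not pass the test, but the *Δclr2* difference did with that strain alone in the fit (-0.76 ± 0.22, adjusted p = 0.012). MYCTH_2308030 changed by -1.46 ± 0.26 in *Δclr1*, -1.40 ± 0.25 in *Δclr4* and -0.63 ± 0.25 in *Δclr2*, and the *Δclr2* call was lost in DESeq2 and without either t1 library (-0.71 and -0.54) or the t4 library of R1 (-0.44). MYCTH_2308477 changed by -2.67 ± 0.38 in *Δclr1* and -1.45 ± 0.43 in *Δclr2*, and the *Δclr2* call was lost without the t1 library of R2 (-1.06, adjusted p = 0.13) or the t4 library of R2 (-1.23, adjusted p = 0.08). MYCTH_2308812 changed by -1.25 ± 0.22 in *Δclr1* and -1.08 ± 0.23 in *Δclr2*, where leaving out the t1 library of R2 gave -0.64 (adjusted p = 0.052). MYCTH_2118844 changed in *Δclr2* by -1.47 ± 0.43, a call lost without the t4 library of R2 (-1.26), culture R1 (-1.55) or culture R2 (-1.36). MYCTH_2303577 changed in *Δclr4* by -0.80 ± 0.17, a call lost without culture R1 (-0.65).

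MYCTH_2295409 moved in opposite directions. It was higher at t4 than at t1 in *Δclr2*, by 1.76 ± 0.27 (adjusted p = 4.8e-06), and lower in *Δclr1* (-0.91 ± 0.25, adjusted p = 0.0047) and in the parental strain (-0.98 ± 0.35, adjusted p = 0.026). The difference between these changes was not tested. The parental call was lost without the t1 library of R2 (-0.76, adjusted p = 0.21) or the t4 library of R1 (-0.72, adjusted p = 0.22), and the *Δclr1* call without the t1 library of R2 (-0.70, adjusted p = 0.077). With the culture as a block, 5 genes differed in the parental strain, the added ones being MYCTH_104674 (0.89 ± 0.26, adjusted p = 0.0078) and MYCTH_2308030 (-0.58 ± 0.20, adjusted p = 0.021). The share of all genes was not computed for that fit. The block also added MYCTH_104674 in *Δclr1* (-0.97 ± 0.32, adjusted p = 0.014), which DESeq2 called too (-1.03 ± 0.42, adjusted p = 0.041). Without the t1 library of R2, MYCTH_104674 was called in the parental strain (1.83, adjusted p = 0.00059) and in *Δclr1* (-1.34, adjusted p = 0.025).

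**Figure D4:**
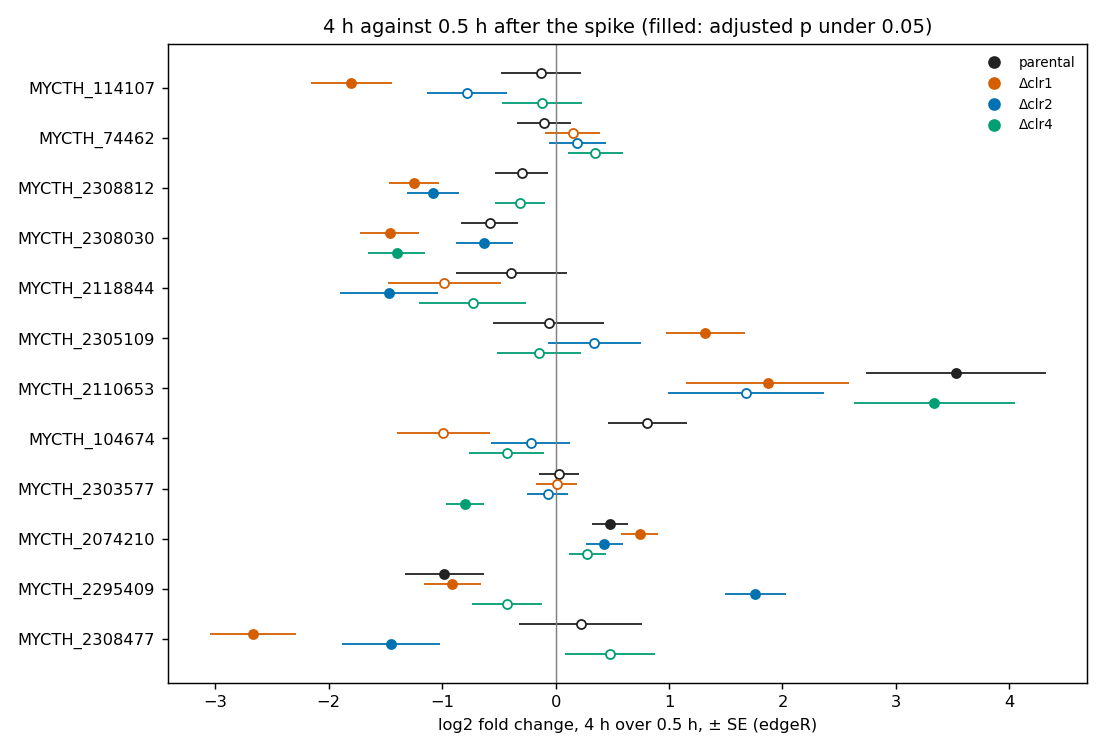
Log2 fold change of t4 (4 h) over t1 (0.5 h) with SE for the 12 genes in the 4 strains, from the edgeR model. Filled points have an adjusted p under 0.05. MYCTH_2110653 lies right of 0 in all 4 strains (1.68 to 3.53) and MYCTH_2308477 lies farthest left in *Δclr1* (-2.67).

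The exponential libraries, with excess glucose, were not used by the rule. They were compared with SS, whose libraries the rule did use and where a low value favours membership. The share of all genes that differed between ex and SS was 38.4% in *Δclr2*, 41.9% in the parental strain, 45.9% in *Δclr1* and 47.8% in *Δclr4*, and in the same order 8, 5, 10 and 7 of the 12 genes differed. In all 4 strains, 4 genes were lower in exponential growth than at SS and 1 was higher. The share of all genes called in 1 direction in all 4 strains was not computed, so these counts have no background beside them. MYCTH_114107 had 2.91 to 12.4 CPM in the 8 exponential libraries and 18.8 to 132 CPM at SS, and its log2 fold change was between -3.30 ± 0.43 (parental) and -2.64 ± 0.43 (*Δclr1*). MYCTH_2074210 had 22.7 to 44.8 CPM in exponential growth, without overlap with SS, and changed by -2.76 ± 0.18 (parental) to -2.50 ± 0.18 (*Δclr2*). MYCTH_74462 changed by -1.49 ± 0.31 (parental) to -0.85 ± 0.27 (*Δclr1*), and MYCTH_2303577 by -1.11 ± 0.25 (*Δclr2*) to -0.50 ± 0.20 (*Δclr4*). The call of MYCTH_74462 was lost in *Δclr1* without the SS library of R2 (-0.46) or the ex library of R2 (-0.81), in *Δclr2* without the same libraries (-0.88 and -0.79) and in *Δclr4* without the ex library of R1 (-0.82). The call of MYCTH_2303577 was lost in the parental strain in DESeq2 and without the ex library of R1 (-0.34) or either SS library (-0.46 and -0.71), in *Δclr1* without the ex library of R2 (-0.52), and in *Δclr4* without the ex library of R1 (-0.35) or the SS library of R2 (-0.38).

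MYCTH_2308030 was the member that was higher in exponential growth, by 1.88 ± 0.34 in the parental strain, 2.98 ± 0.27 in *Δclr4*, 3.38 ± 0.40 in *Δclr2* and 4.07 ± 0.29 in *Δclr1*. Its exponential level was 22.1 and 25.2 CPM in the parental strain and 28 and 25.5 CPM in *Δclr2*, against 137 and 122 CPM in *Δclr1* and 117 and 125 CPM in *Δclr4*, a split that follows the sequencing centre and cannot be told apart from it. In *Δclr1* the exponential level thus exceeded every level after the spike, the highest of which was 76.9 CPM. MYCTH_2308812 was also higher in exponential growth in *Δclr1* (1.09 ± 0.23), *Δclr2* (1.05 ± 0.27) and *Δclr4* (1.52 ± 0.24). In the parental strain the change was 0.15 ± 0.26. Its *Δclr2* call was lost without the ex library of R2 (0.67), and its *Δclr1* call without culture R2 of that strain (0.76). In *Δclr1* alone, MYCTH_2308477 (2.06 ± 0.57) and MYCTH_2295409 (1.09 ± 0.40) passed the test as higher, and both calls were lost when single libraries were left out (1.51 for MYCTH_2308477 without the ex library of R2, and 0.54 and 0.66 for MYCTH_2295409 without the ex library of R1 or the SS library of R2).

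MYCTH_2110653 was nearly absent from the exponential libraries. It had 0 reads in both exponential libraries of the parental strain and of *Δclr2*, where SS was at least 18.1-fold and 33.6-fold higher, computed against a floor of 3 counts over both libraries. It had 2 reads over the exponential libraries of *Δclr1* against 205 at SS, a ratio of 82.0 (95% interval 22.4 to 682), and 4 against 444 in *Δclr4*, a ratio of 125 (48.6 to 462). These exact intervals cover counting error only. Its fitted fold change passed the test in *Δclr1*, *Δclr2* and *Δclr4* and, with the culture as a block, also in the parental strain (adjusted p = 1.3e-05). The *Δclr1* call was lost without either ex library (adjusted p = 0.059 for both) and the *Δclr2* call without either ex library or the SS library of R1. MYCTH_2118844 had 1 to 4 reads over the 2 exponential libraries of each strain against 7 to 15 at SS, and MYCTH_2305109 was lower in exponential growth in *Δclr1* (-1.95 ± 0.50) and *Δclr2* (-2.98 ± 1.1). The *Δclr1* call of MYCTH_2305109 was lost without the ex library of R1 (-1.27, adjusted p = 0.078), and the *Δclr2* call without the ex library of R2 (-2.15) or either SS library (-2.82 and -3.06). The block raised the number of genes called in the parental strain from 5 to 8, the other 2 added being MYCTH_104674 (-2.86 ± 1.06, adjusted p = 0.029) and MYCTH_2118844 (-3.17 ± 1.28, adjusted p = 0.042). For the fit with the block, the share of all genes was not computed.

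**Figure D5:**
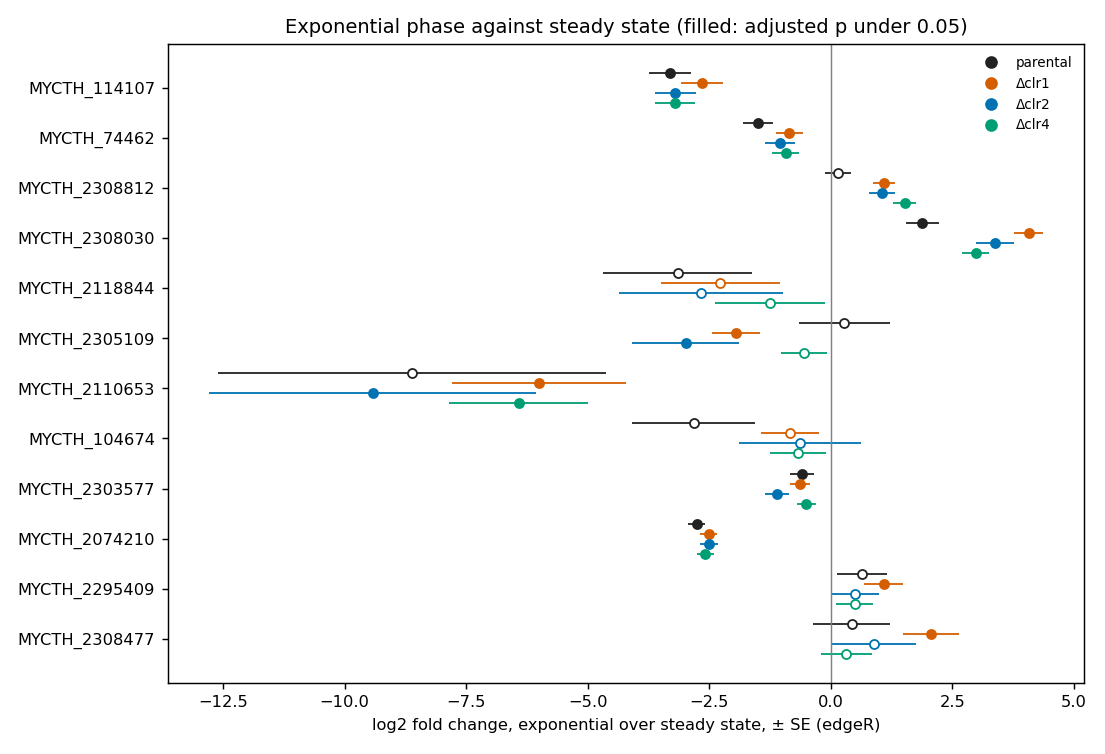
Log2 fold change of exponential growth over steady state with SE for the 12 genes in the 4 strains, from the edgeR model. Filled points have an adjusted p under 0.05. MYCTH_2308030 lies right of 0 in all 4 strains (1.88 to 4.07), MYCTH_114107 and MYCTH_2074210 lie left of 0 in all 4, and the wide bars of MYCTH_2110653 reflect its 0 to 4 exponential reads per strain.

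No member passed a test between strains in exponential growth. Between *Δclr2* and the parental strain, edgeR called 0 of the 12 genes and 0% of all genes, and between *Δclr1* and *Δclr4* it called 0 of the 12 and 0.0350% of all genes. DESeq2 called 0 of the 12 in both comparisons, and none had an unadjusted p under 0.05. The precision was low for the rarest transcripts: the estimate for MYCTH_2118844 was -0.16 ± 2.55 between *Δclr2* and the parental strain. For MYCTH_114107 the estimates were 0.47 ± 0.47 and -0.55 ± 0.47.

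The size of the rise over strains and times varied among the members. Over the 16 responses per gene, the correlation of d between 2 members had a median of 0.01 over the 66 pairs, a range of -0.77 to 0.95, and 33 pairs below 0. MYCTH_114107 was most like MYCTH_2308030 and MYCTH_104674 (both r = 0.95) and MYCTH_2303577 (r = 0.90), and least like MYCTH_2074210 (r = -0.77). Over the 24 group means of level, which also hold the difference from ex and SS to the times after the spike, the median correlation of the same pairs was 0.71. These are descriptions over values that share SS libraries and cultures within a strain. In the time of the peak, 9 genes peaked at t2 in *Δclr4* and 6 in the parental strain, against 2 in *Δclr1*, where 4 peaked at t1, 3 at t3 and 3 at t4. In *Δclr2*, 5 genes peaked at t2, 3 at t1, 3 at t4 and 1 at t3.

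The 12 genes did not lie together in the genome. Chromosomes 1, 3 and 5 held 3 each, chromosome 6 held 2 and chromosome 4 held 1, and none lay on chromosomes 2 and 7. The closest pair, MYCTH_2308812 and MYCTH_2308477 on chromosome 5, had starts 569144 bases apart, and no member had another as direct neighbour. The gene spans, introns included, ran from 1124 to 4553 bases with a median of 2180 bases, against 1733 bases over all protein-coding genes.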

How the data were processed

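Poly(A) RNA from 8 bioreactor cultures was sequenced in 48 libraries, 1 of them on 2 flow cells and deposited as 1 column. The authors deposited raw read counts per gene after trimming where needed and STAR alignment to ASM22609v1. The STAR version and the counting program are not given in the sources used here. Deposited normalized counts and the authors' own fold changes and p-values were not used.

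CPM used column totals. Contrasts were fitted with edgeR 4.0.16 in R 4.3.3 (1 model of all 48 libraries, TMM, filterByExpr with a minimum count of 10, robust quasi-likelihood F-test, Benjamini-Hochberg over 8565 genes). SE is the absolute log2 fold change over the root of F. TMM moved the median response of all genes by -0.33 to 0.29 (log2) against column totals, and fold changes are on the TMM scale. Libraries of 1 culture share its number, and their deviations correlated with a median r of 0.0396 (parental), 0.217 (*Δclr1*), 0.0854 (*Δclr2*) and 0.248 (*Δclr4*), so a fit with culture as a block was also run. Alternatives were DESeq2 1.42.0, its size factors, no filter, each library or culture left out, the compared strains alone, no exponential libraries and changed settings of the rule.

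The members and lists were chosen with earlier results of these data known. CAZyme classes, transcription factors and GO terms came from the study's supplements. Product names and sequences were not used, so product classes, a list for conidia and promoter motifs planned at first were not analysed. Genes were named if they were members on the CAZyme list, among the 10 with the highest lowest d or the 5 most abundant at t4, among the 3 highest or lowest called per contrast, or next to the threshold.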

Additional observations from a re-analysis of the deposited data

Results flagged for a closer look

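The response to cellulose differed between strains, by the test of the difference itself (edgeR), in 20 comparisons of a member and a pair of strains. Between *Δclr1* and *Δclr4* the differences (log2) were -5.57 for MYCTH_104674, -4.65 for MYCTH_114107, -3.85 for MYCTH_2308030, -2.97 for MYCTH_2110653, -1.69 for MYCTH_74462 and -1.64 for MYCTH_2303577, and 3.96 for MYCTH_2295409, 2.24 for MYCTH_2308477 and 0.77 for MYCTH_2074210. Between *Δclr1* and the parental strain they were -4.44 for MYCTH_104674, -4.08 for MYCTH_114107, -2.95 for MYCTH_2308030, -1.59 for MYCTH_2303577 and -1.12 for MYCTH_74462, and 3.85 for MYCTH_2295409, 2.73 for MYCTH_2308477 and 1.06 for MYCTH_2074210. Between *Δclr2* and the parental strain they were -1.23 for MYCTH_74462, 2.89 for MYCTH_2295409 and 0.54 for MYCTH_2074210. Of all genes, 35.3%, 38.5% and 31.0% differed in these comparisons, in the same order. The comparisons share libraries of *Δclr1* or of the parental strain, and the libraries are those that selected the members. Some calls of MYCTH_2308477, MYCTH_2110653, MYCTH_74462 and MYCTH_2074210 were lost when 1 library or culture was left out.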

How the results depend on the processing

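No called result reversed under any alternative. Of the 12 genes, the membership rule kept 11 with TMM-scaled CPM (15 genes met it, MYCTH_104674 lost), 12 with a pseudocount of 0.5 (13 genes) and with no minimum level (12 genes), 10 with a pseudocount of 2 (10 genes, MYCTH_2295409 and MYCTH_2308477 lost), 10 with R1 alone (12 genes, the same 2 lost) and 10 with R2 alone (14 genes, MYCTH_104674 and MYCTH_2308477 lost). The culture block (pairing by culture within a strain) raised the number of members called from 3 to 5 for *Δclr2* minus parental response, from 3 to 5 for t4 against t1 in the parental strain and from 5 to 8 for ex against SS in the parental strain. It ended no call, added 10 in all, all named in the report, and could not be fitted for the differences between strains at ex. No share of all genes was computed with the block, so its counts have no background beside them.

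Leaving out 1 library or culture gave 7 to 9 called members for the response difference *Δclr1* minus *Δclr4* (main 9), 7 to 9 for *Δclr1* minus parental (8), 1 to 4 for *Δclr2* minus parental (3) and 0 for *Δclr4* minus parental (0). For t4 against t1 it gave 2 to 4 in *Δclr4* (3), 1 to 3 in the parental strain (3), 2 to 4 in *Δclr2* (6) and 5 to 8 in *Δclr1* (8). For ex against SS it gave 5 to 7 in *Δclr4* (7), 4 to 6 in the parental strain (5), 4 to 7 in *Δclr2* (8) and 5 to 10 in *Δclr1* (10), and 0 throughout for both strain comparisons at ex. Of the 70 called gene results, 37 were never lost in these settings. With 1 library left in a group, its spread was assumed to equal that of the others. DESeq2 ended 2 calls and added 5, and the other alternatives without a left-out library ended at most 3 each. The cause of these changes was not tested.

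With 2 cultures per group, and 2 to 23 reads per SS library in MYCTH_2308477 and 3 to 9 in MYCTH_2118844, differences in the rarest members were not detectable unless large. Each strain was 1 clone, so no p-value covers the spread between clones. Without the culture block, a p-value rests on the spread between libraries of a group, pooled over strains and states. Libraries of 1 culture were then treated as independent.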
